A study of Mus musculus with 2 samples.

Results

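The RNA helicase genes of the mouse were examined for open chromatin at their ends in hematopoietic stem cells with and without an added linker histone. The members were all protein-coding genes of the RefSeq annotation (mm10) whose symbol is Ddx or Dhx followed by a number, 53 of 21883 genes on chromosomes 1 to 19, X and Y, of which 37 are named Ddx and 16 Dhx. Both groups were wild-type C57BL/6J bone marrow stem cells with the surface phenotype CD48-CD150+LSK. One group was transduced with MSCV-H1C, a retrovirus that adds the linker histone H1C (gene H1f2), and the other with pMSCV, the empty vector (control). The labels give no age for the mice and no check of H1C expression, and a viral promoter drove a gene that the cells also carry, so the H1C group models an excess of H1C. Each group held 1 ATAC-seq library, made from about 1000 cells, and a separate list of accessible regions was deposited for each. No difference below has a replicate check, and no test between the groups was possible.

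DEAD-box (Ddx) and DEAH-box (Dhx) proteins use ATP to open RNA duplexes or to strip proteins from RNA. They act at nearly every step of RNA life, from splicing and ribosome assembly to export, translation, decay and the sensing of viral RNA. DDX41 is the member best known in blood: inherited and acquired mutations of it in humans predispose to myelodysplasia and acute myeloid leukemia, and the protein has been placed in the spliceosome and in the sensing of cytosolic DNA. Linker histones sit on the nucleosome at the entry and exit of its DNA and favour compact chromatin, while the promoters of widely expressed genes, which most RNA helicase genes are, usually stay free of nucleosomes.

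The H1C list held 13156 regions and the control list 32005. Read totals are not part of these lists. The lowest local background in a list was 4.40 in H1C and 3.99 in control, a ratio of 1.10 of H1C to control. It is in proportion to depth if both lists were called with the same settings, which are not given here. Of the stem cell markers, 1 had a gene-end region in H1C (Mllt3) and 6 in control (also Kit, Ly6a, Slamf1, Hlf and Meis1). Procr, Mecom, Cd34 and Gata2 had none in either list, and Slamf1, which encodes the CD150 used in the sort, had one in control alone. Of the markers of other cells, in H1C and in control, gene-end regions were found at 2 and 5 of 6 lymphoid, 0 and 2 of 6 myeloid, 0 and 1 of 6 erythroid and megakaryocyte, 0 and 2 of 3 endothelial and 0 and 2 of 2 epithelial genes. Of all protein-coding genes, 33.6% had a gene-end region in H1C and 46.9% in control, and each marker list is short. The part of other cells in the results was not tested.

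Promoter sequences are shown for Ddx41, for the pair of other members with the strongest control regions that were open in both lists and had an annotated start, and for the 4 such members with the strongest regions called in control alone. Each window runs from 250 bases before to 50 after the annotated start (RefSeq, GRCm38.p6, which is mm10), read 5′ to 3′ on the strand of the gene. Capitals mark letters that match a motif core on either strand: CCGGAA (ETS factors), TGCGCA (NRF1), GGGCGG (SP1), CCAAT (NF-Y) and ATGGCGG (YY1). The 2 matches to the NF-Y letters in Ddx41 overlap on opposite strands and form 1 run of capitals.
Ddx41 (chr13:55536609-55536908, minus strand, open in both lists): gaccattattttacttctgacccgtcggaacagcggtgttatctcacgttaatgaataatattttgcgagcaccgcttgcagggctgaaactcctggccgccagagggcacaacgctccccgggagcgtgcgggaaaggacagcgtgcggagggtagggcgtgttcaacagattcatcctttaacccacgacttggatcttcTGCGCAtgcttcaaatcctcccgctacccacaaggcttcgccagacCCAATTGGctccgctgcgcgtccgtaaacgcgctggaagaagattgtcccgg
Ddx24 (chr12:103425798-103426097, minus strand, open in both lists): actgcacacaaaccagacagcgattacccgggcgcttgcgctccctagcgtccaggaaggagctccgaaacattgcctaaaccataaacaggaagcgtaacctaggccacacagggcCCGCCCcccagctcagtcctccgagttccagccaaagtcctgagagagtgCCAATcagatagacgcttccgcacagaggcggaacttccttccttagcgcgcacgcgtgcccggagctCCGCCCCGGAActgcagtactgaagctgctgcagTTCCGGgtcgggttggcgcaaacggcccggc
Ddx54 (chr5:120612880-120613179, plus strand, open in both lists): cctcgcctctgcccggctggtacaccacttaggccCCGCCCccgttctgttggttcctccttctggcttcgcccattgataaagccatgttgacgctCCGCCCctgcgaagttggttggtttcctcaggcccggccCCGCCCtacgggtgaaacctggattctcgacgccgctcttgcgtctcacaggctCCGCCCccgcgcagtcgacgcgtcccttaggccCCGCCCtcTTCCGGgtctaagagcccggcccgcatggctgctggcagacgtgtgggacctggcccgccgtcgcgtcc
Ddx27 (chr2:167015063-167015362, plus strand, control alone): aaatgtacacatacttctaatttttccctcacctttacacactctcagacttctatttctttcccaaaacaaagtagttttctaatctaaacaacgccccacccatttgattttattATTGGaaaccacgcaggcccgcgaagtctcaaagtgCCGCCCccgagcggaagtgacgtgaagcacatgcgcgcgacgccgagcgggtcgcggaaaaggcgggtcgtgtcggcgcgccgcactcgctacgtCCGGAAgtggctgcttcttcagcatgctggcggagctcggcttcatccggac
Ddx19a (chr8:110997774-110998073, minus strand, control alone): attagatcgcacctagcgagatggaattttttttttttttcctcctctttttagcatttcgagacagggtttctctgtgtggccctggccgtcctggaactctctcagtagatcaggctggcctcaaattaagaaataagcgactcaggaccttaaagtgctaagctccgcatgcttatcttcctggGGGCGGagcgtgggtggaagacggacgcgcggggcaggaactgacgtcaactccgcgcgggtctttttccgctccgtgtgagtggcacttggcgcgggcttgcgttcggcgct
Ddx52 (chr11:83941840-83942139, plus strand, control alone): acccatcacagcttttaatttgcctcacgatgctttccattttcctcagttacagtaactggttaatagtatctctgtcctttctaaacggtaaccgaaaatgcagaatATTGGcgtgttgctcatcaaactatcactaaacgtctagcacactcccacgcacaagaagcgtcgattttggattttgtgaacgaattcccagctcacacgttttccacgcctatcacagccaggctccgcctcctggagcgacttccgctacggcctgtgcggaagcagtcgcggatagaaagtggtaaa
Ddx46 (chr13:55634749-55635048, plus strand, control alone): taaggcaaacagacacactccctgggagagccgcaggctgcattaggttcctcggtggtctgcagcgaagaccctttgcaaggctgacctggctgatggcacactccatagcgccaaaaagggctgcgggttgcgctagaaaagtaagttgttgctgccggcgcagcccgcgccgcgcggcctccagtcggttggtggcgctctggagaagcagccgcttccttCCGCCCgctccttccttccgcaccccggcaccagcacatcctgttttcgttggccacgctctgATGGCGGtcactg
The Ddx41 window held 25 CpG pairs, 1 match to the NRF1 letters and 2 overlapping matches to the NF-Y letters. Of its 300 bases, 254 lay inside the H1C region and 283 inside the control region of the gene. The Ddx54 window held 5 matches to the SP1 letters, and the Ddx24 window held 2 for SP1 and 2 for ETS. Among the members called in control alone, Ddx27 held 1 match each for ETS, SP1 and NF-Y, Ddx19a held 1 for SP1, Ddx52 held 1 for NF-Y, and Ddx46 held 1 for SP1 and 1 for YY1. Their control regions covered 255, 242, 153 and 208 of the 300 bases. The windows shown held 24 to 30 CpG pairs in the members open in both lists and 18 to 28 in those called in control alone.

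Most RNA helicase genes had an open end in control, and about 3 in 4 of these also had one in H1C. A gene counted as open when a listed region lay within 1 kb of either end. In H1C 34 of 53 members were open (64.2%, exact 95% interval 49.8 to 76.9), against 33.6% of all protein-coding genes. In control 46 of 53 were open (86.8%, 74.7 to 94.5), against 46.9% of all protein-coding genes. With the lists as deposited, 34 members were open in both, 12 in control alone and 7 in neither. None was open in H1C alone, which by the limit of 3 counts allows a share of up to 5.66%, while 0.288% of all genes were of that kind. The control list is the longer one. With both lists trimmed to the same length by −log10 p, 3 members were open in H1C alone, Ddx49, Ddx60 and Dhx40. Another 7 were open in control alone (13.2%) and 31 in both (58.5%). Of all protein-coding genes, 1.89% were then open in H1C alone, 5.94% in control alone and 31.7% in both. Of the 46 members open in control 73.9% (58.9 to 85.7) were kept in H1C, against 71.0% of all genes open in control. With the trimmed lists the kept shares were 81.6% of members and 84.2% of other genes open in control. The intervals here and below cover counting error only.

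**Figure D1:**
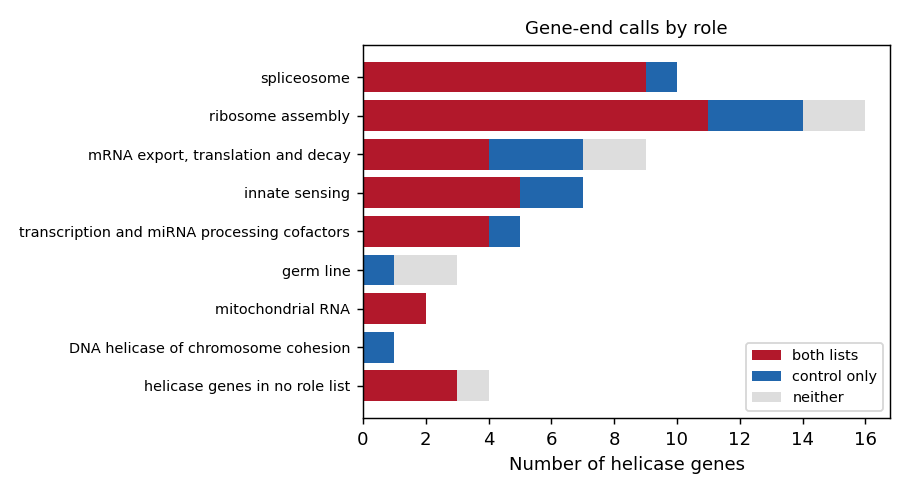
Number of RNA helicase genes (x axis) open in both lists, in control alone or in neither, by role (rows). Ddx41, Dhx9, Dhx15 and Dhx33 stand in 2 rows each. Of the 10 spliceosome genes 9 were open in both lists, while none of the 3 germ line genes was. Of all 21883 protein-coding genes, 7285 were open in both lists.

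Spliceosome helicases were open in nearly all cases. In H1C 9 of 10 were open and in control 10 of 10, against 33.6% and 46.9% of all genes. Ddx46, the mouse counterpart of yeast Prp5, was the one called in control alone (control pileup 41, fold 6.62, −log10 p 22.9, 314 bp). Across all genes open in control, 29.0% were called in control alone. Ddx41 (chromosome 13, 55530410 to 55536658, minus strand) had a region at its start in both lists. In H1C the region spanned 55536446 to 55536862, 417 bp, with a fold of 6.09, a −log10 p of 24.2, a −log10 q of 20.2 and a summit 251 bp from the region's left edge. In control it spanned 55536381 to 55536891, 511 bp, with a fold of 8.92, a −log10 p of 46.8, a −log10 q of 42.7 and a summit 312 bp from the left edge. The 2 summits lay 4 bp apart, 39 bp upstream of the annotated start in H1C and 35 bp upstream in control. By −log10 p, Ddx41 ranked 11 of 34 kept members in H1C and 9 of 46 in control.

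The pileup at the summit, the number of reads or fragments stacked there, was solved from the fold and the p-value of each region and allows the lists to be set side by side. Ddx41 had a summit pileup of 48 in H1C and 73 in control. Scaled by the ratio of genome backgrounds, this was a log2 ratio of H1C to control of -0.75 (95% interval -1.30 to -0.20), and the H1C pileup was lower by more than counting error. With the local background as the scale, taken at summits in both lists, the ratio was -0.40 (-0.96 to 0.14), within counting error. This ratio ranked 23 of 34 from the lowest, inside the middle of the members. Dhx8, the helicase that releases spliced mRNA, had a pileup of 28 in H1C and 76 in control, the lowest ratio of all kept members (-1.58, -2.26 to -0.94). Dhx38, which acts before the second step of splicing, had 49 in H1C and 87 in control (-0.97). Ddx42, a helicase that associates with the U2 particle, had 59 in H1C and 83 in control (-0.63). Dhx15, which takes spent spliceosomes apart, had 48 in H1C and 56 in control (-0.36, -0.95 to 0.22), a difference within counting error. Ddx23 (37 in H1C and 52 in control), Dhx16 (34 and 58) and Dhx35 (31 and 47) lay between these values. Ddx39b, which serves both splicing and mRNA export, had 29 in H1C and 58 in control (-1.14, -1.84 to -0.48). Its H1C fold was the lowest of all kept members, 2.82, against 5.05 in control.

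Ribosome assembly helicases were open at 11 of 16 genes in H1C and 14 of 16 in control, against 33.6% and 46.9% of all genes. The 2 counted in neither list, Ddx50 and Ddx56, had regions in both lists over a start inside the gene, given below. Ddx24 (chromosome 12, 103407976 to 103425847) had the highest fold of all gene-end regions of the members, 8.03 in H1C and 11.9 in control, with pileups of 48 and 91 (log2 ratio -1.06, -1.60 to -0.54). Ddx54 (chromosome 5, 120613082 to 120628592) had the highest pileups, 63 in H1C and 112 in control (-0.97), in wide regions of 946 and 1047 bp. Ddx21, a nucleolar helicase that also touches RNA polymerase I and II genes, had 24 in H1C and 64 in control, nearly as low a ratio as Dhx8 (-1.56, -2.30 to -0.86). Ddx10, known from fusions with NUP98 in human leukemia, had 33 in H1C and 65 in control (-1.12). Ddx47 (38 in H1C and 49 in control, -0.51, -1.16 to 0.13), Ddx49 (29 and 30, -0.19, -0.98 to 0.60) and Ddx18 (25 and 34, -0.59, -1.39 to 0.20) had intervals that reached above 0. Dhx33, Dhx37, Ddx55 and Ddx31 were also kept, with pileups of 34, 47, 36 and 21 in H1C and 65, 67, 53 and 39 in control. The members called in control alone were Ddx27, Ddx52 and Ddx51, with control pileups of 43, 39 and 36. Ddx27 (chromosome 2, region 167015108 to 167015719, 612 bp, fold 7.38, −log10 p 25.9) was the strongest of these, and its summit lay 28 bp upstream of the start. Ddx52 had in both lists a further region 1171 (H1C) and 1162 bp (control) from its end, just beyond the window.

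Helicases of mRNA export, translation and decay were open at 4 of 9 genes in H1C and 7 of 9 in control. The shares of all genes were 33.6% and 46.9%. Ddx19b, counted in neither list, had a region in both over a start inside the gene, given below. Ddx39a, an mRNA export helicase (chromosome 8, 83715177 to 83726904), had the highest −log10 p of all members in control, 34.4 in H1C and 71.5 in control, with pileups of 58 and 104 (log2 ratio -0.98, -1.47 to -0.51). Dhx29, which helps the small ribosomal subunit to scan structured leaders, had 50 in H1C and 80 in control (-0.82). Dhx34, a factor of nonsense-mediated decay, had 33 in H1C and 62 in control (-1.05). Ddx3x, an X-linked helicase of translation initiation, had 23 in H1C and 35 in control (-0.75, -1.57 to 0.05). Open in control alone were Ddx19a, a helicase of mRNA release at the nuclear pore (pileup 41, fold 7.64), Dhx36, which opens G-quadruplexes (pileup 25, fold 5.21), and Ddx6, a decay and storage factor. The Ddx6 call came from a weak region 553 bp from the gene's left end, with a pileup of 28 and a fold of 3.03. A region 1388 bp wide with a pileup of 42 started 1147 bp from that end in control, beyond the window, and in H1C regions with pileups of 25 and 24 overlapped it. Ddx6 therefore counts as open in control alone by its window, while its stronger region was called in both lists.

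**Figure D2:**
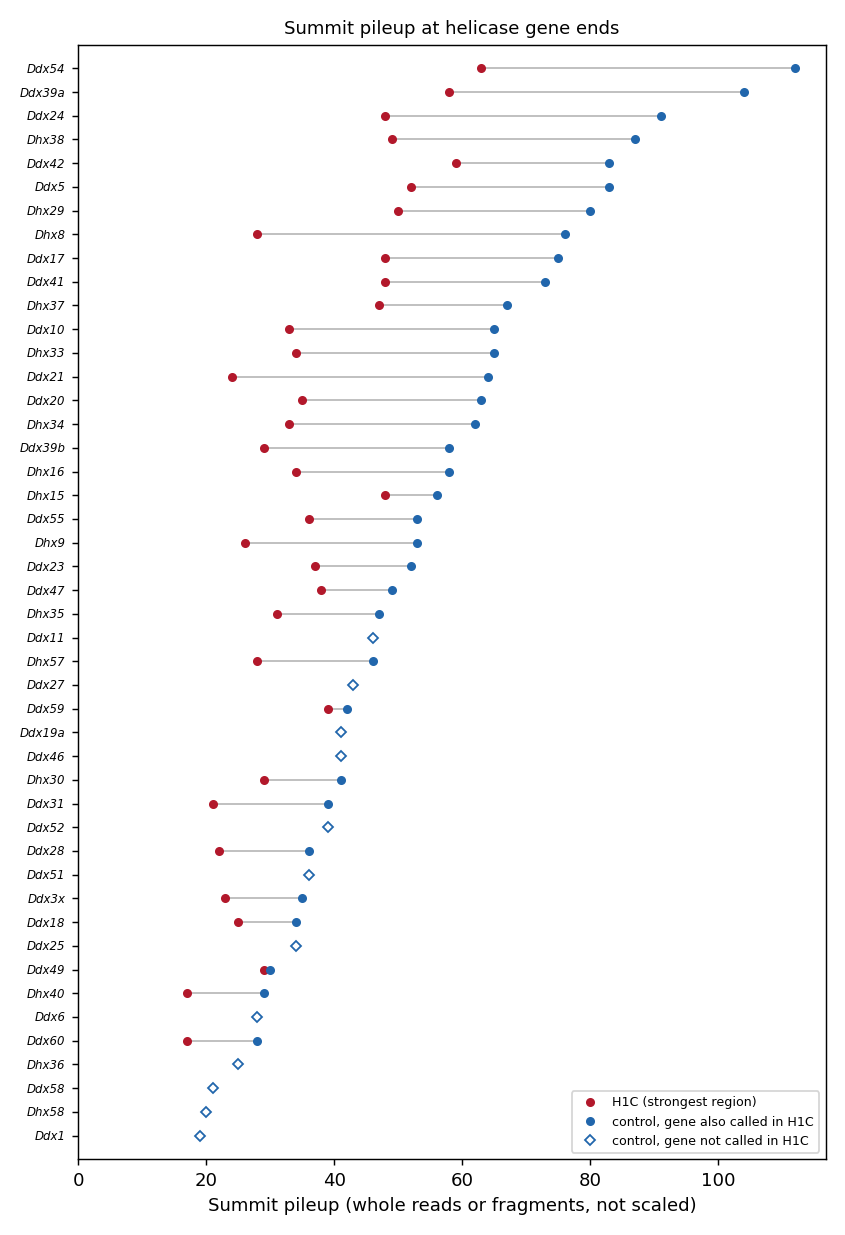
Summit pileup (x axis, unscaled) of the strongest gene-end region of each of the 46 RNA helicase genes open in control (rows), in H1C (red) and in control (blue), with open diamonds for the 12 genes not called in H1C. All 34 genes called in both lists have the higher pileup in control.

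The helicases of innate sensing included the weakest regions. Dhx58, which encodes LGP2, and Ddx58, which encodes RIG-I, a sensor of viral RNA, were open in control alone. Their pileups were 20 and 21 and their −log10 p values 7.75 and 7.22, the lowest among the members' control regions apart from that of Ddx6 (7.48). Ddx60, an antiviral cofactor, was kept with 17 in H1C and 28 in control (-0.86, -1.82 to 0.06). Dhx9, a nuclear helicase that also binds viral RNA, had 26 in H1C and 53 in control (-1.17, -1.91 to -0.47). Of the 7 genes on this list, which takes in Ddx41, Dhx15 and Dhx33, 5 were open in H1C and 7 in control. The shares of all genes were 33.6% and 46.9%. Members that assist transcription or small RNA processing were kept at 4 of 5, against 71.0% of all genes open in control. Ddx17 had 48 in H1C and 75 in control (-0.79). Ddx20, a subunit of the SMN complex, had 35 in H1C and 63 in control (-0.99). Ddx1, which also takes part in tRNA ligation, was open in control alone with the lowest control pileup of all members, 19. Both mitochondrial members were kept: Ddx28 had 22 in H1C and 36 in control, and Dhx30 had 29 in H1C and 41 in control. Of the 4 members in no role list, Ddx59 (39 in H1C and 42 in control, -0.25, -0.92 to 0.42), Dhx40 (17 and 29) and Dhx57 (28 and 46) were kept.

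Ddx5, an abundant coactivator of transcription, was the 1 kept member whose strongest regions lay at different ends in the 2 lists. In H1C its strongest region lay 642 bp outside the far end, also near Polg2, with a pileup of 52. In control it lay over the start, shared with Cep95, with a pileup of 83. The H1C region over the start had a pileup of 46, a log2 ratio to control of -0.99 (-1.55 to -0.46) at summits 29 bp apart.

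Ddx11, a DNA helicase of sister chromatid cohesion, had the strongest region that was called in control alone (chromosome 17, 66123381 to 66123909, 529 bp, pileup 46, fold 7.65, −log10 p 28.2). Ddx25, a testis helicase, also counted in control alone. That region, with a pileup of 34, was the farthest of all from its gene end, at 858 bp, and was shared with Pus3.

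Of the 7 members open in neither list, 4 had a region over another annotated start that lay more than 1 kb inside the gene. Across all genes, 52.8% were open in neither list. Ddx50, a nucleolar paralog of Ddx21, had a strong region at chromosome 10, 62651011 to 62651699 in H1C and 62650762 to 62651657 in control, with pileups of 52 and 89 and folds of 8.31 and 11.7. Ddx56, another ribosome assembly helicase, had pileups of 26 in H1C and 51 in control, and Ddx19b had 32 in H1C and 33 in control. Dhx32 had a region in control alone (pileup 26). Their place among the closed genes thus came from the outermost ends of the annotation. Ddx4, the germ cell helicase Vasa, and Ddx43, a testis antigen, had no region within 1 kb of an end or a listed start. Nor did the Y-linked Ddx3y, whose nearest region was 89451261 bp away in H1C and 89451303 bp away in control. Chromosome Y held 11 regions in H1C and 12 in control, against 265 and 535 on chromosome X.

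Whether a helicase gene was kept went with the strength of its control region, as for other genes. In 10 bins of control −log10 p, the members kept 0 of 4 in the weakest bin and 5 of 5 in the strongest, and the other genes 10.3% and 99.8%. At the bins of the 46 members the other genes' shares come to 74.5%, or 34.3 genes, against the 34 kept, a difference of -0.61 percentage points. That share lies inside the members' interval of 58.9 to 85.7%, which is wide and does not show that the shares are alike. The strongest member called in control alone was Ddx11, at 28.2, so that the 23 members above it were kept by the choice of that bound, and 97.0% (96.5 to 97.5) of 4904 other genes above it were kept.

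**Figure D3:**
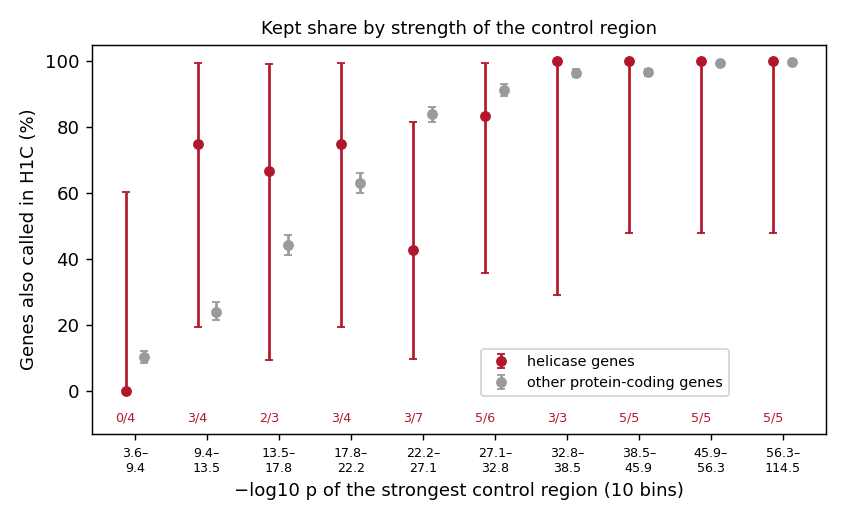
Share of genes open in control that were also open in H1C (y axis, percent) in 10 bins of the −log10 p of the strongest control region (x axis), for RNA helicase genes (red) and other protein-coding genes (grey), with exact 95% intervals. Red fractions give kept over all helicase genes; the bin of 22.2 to 27.1 holds 3 of 7.

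The bin of −log10 p 22.2 to 27.1 was the 1 of 10 in which the other genes' share lay outside the members' interval. There 3 of 7 members were kept (42.9%, 9.90 to 81.6), Ddx39b, Ddx59 and Dhx35, against 83.9% (81.5 to 86.1) of 1017 other genes. The 4 others were Ddx27, Ddx19a, Ddx52 and Ddx46, with control folds of 6.62 to 7.64 and widths of 314 to 612 bp. In the range spanned by the 5 strongest members called in control alone, which add Ddx11, 3 of 8 members and 86.7% (84.6 to 88.7) of 1094 other genes were kept. That range was chosen by the members' own values, and the bin is 1 of 10 examined. In the 3 bins from 9.38 to 22.2 the members' shares were the higher ones (8 of 11 in all), each with an interval that held the other genes' share.

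Summit pileups of the kept members were lower in H1C than in control, by about as much as at other genes. The 34 members had H1C pileups from 17 to 63 with a median of 34, and control pileups from 28 to 112 with a median of 58. Their median scaled log2 ratio was -0.86 (quartiles -1.02 and -0.67, range -1.58 to -0.19), against -0.84 for other kept genes at the same bins. All 34 ratios lay below 0 with this scaling and with none. With this scaling 0.741% of all kept genes lay above 0. Scaling by the local background at shared summits put Ddx49 and Ddx59 above 0. The share of all kept genes above 0 was not taken at that scale. Scaled by genome background, the interval lay wholly below 0 at 25 of 34 members, against 76.6% of all kept genes. It lay there at 19 members without scaling and at 12 with local scaling, where no share of all kept genes was taken. No member had an interval wholly above 0 under any of the 3. With genome scaling a ratio at or below -1 was found at 9 of 34 members, against 29.7% of all kept genes. The 4 lowest ratios were those of Dhx8, Ddx21, Dhx9 and Ddx39b, and the 4 highest those of Ddx49, Ddx59, Dhx15 and Ddx47. The ratio holds the control pileup in its denominator, and genes without an H1C region have no ratio, so weak control regions enter only with the higher ratios.

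**Figure D4:**
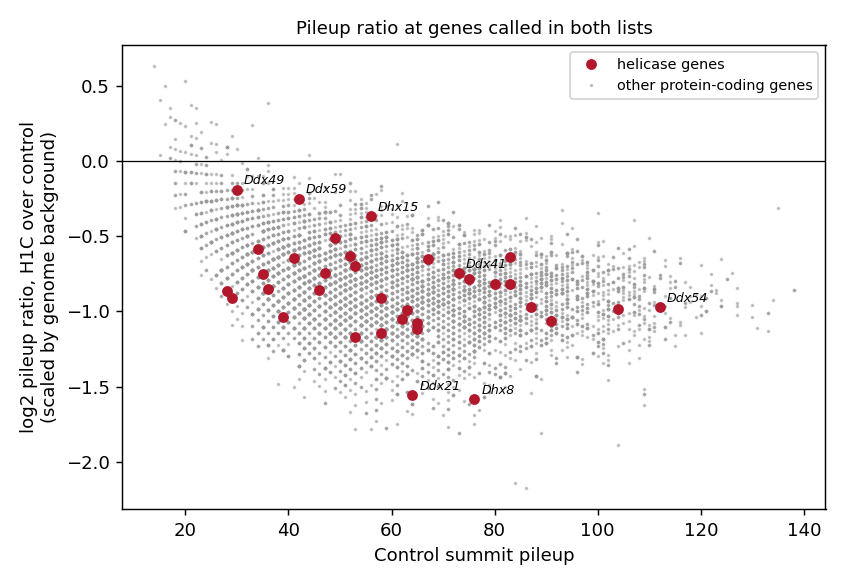
Scaled log2 pileup ratio of H1C to control (y axis) against the control summit pileup (x axis) at genes open in both lists, for RNA helicase genes (red) and other protein-coding genes (grey). All 34 helicase genes lie below 0, from -1.58 (Dhx8) to -0.19 (Ddx49).

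Regions at kept members were narrower in H1C, and their summits stayed near the same place. Median width was 402.5 bp in H1C and 591.5 bp in control, and the median ratio of widths was 0.725, against 0.712 at other kept genes. The H1C region was the narrower one at 32 of 34 members, against 91.1% of all kept genes, and the wider one at Ddx47 and Ddx49. The 32 include Ddx5, whose strongest regions lie at different ends. The widest control regions were those of Ddx5 (1174 bp), Ddx54 (1047 bp), Ddx20 (1006 bp), Ddx31 (1001 bp) and Ddx17 (1000 bp). Of these, Ddx54 kept a width of 946 bp in H1C, while Ddx31 had 582, Ddx17 548 and Ddx20 524 bp, and the H1C region of Ddx5 that overlaps its control region had 1039 bp. At the 33 members whose strongest regions overlapped, summits lay a median of 14 bp apart and at 25 of them within 50 bp. At other kept genes the median gap was 24 bp and 71.5% lay within 50 bp. The largest gaps were 300 bp at Ddx39b and 283 bp at Ddx49.

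The open ends were in nearly all cases the annotated starts. Strand and start were given for 47 of 53 members, of which 31 were open in H1C and 40 in control. The strongest region covered a start at 29 of 31 members in H1C and 38 of 40 in control. The median summit lay 39 bp upstream of the start in H1C and 35 bp upstream in control, and 24 of 31 and 29 of 40 summits were upstream. The exceptions in H1C were Ddx5 and Dhx57, whose region began 131 bp from the start, and in control Ddx25 and Ddx58, whose region lay 342 bp outside the gene.

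**Figure D5:**
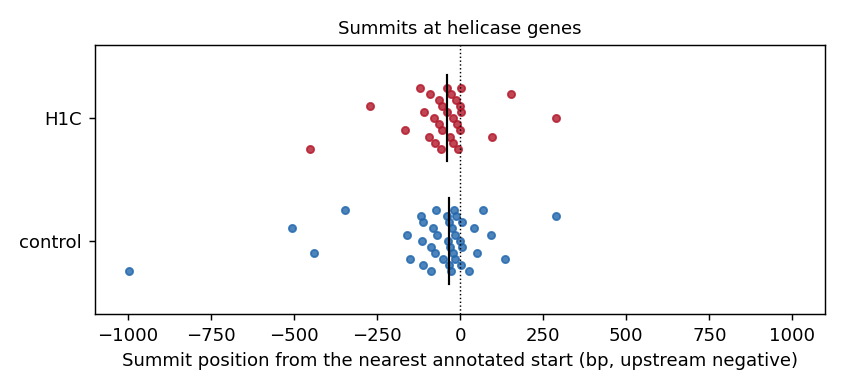
Position of the summit from the nearest annotated start (x axis, bp, upstream negative) at RNA helicase genes, in H1C (30 genes; Ddx5, at 8935 bp, is off the axis) and in control (40 genes). Black bars are medians, at -40 and -35 bp; points are spread vertically for legibility.

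Several members shared their open end with a neighbour. The control region lay within 1 kb of another protein-coding gene at 11 of 46 members, against 28.6% of all genes open in control. These were Ddx54 (with Rita1), Dhx38 (Txnl4b), Dhx29 (Mtrex), Ddx42 (Ccdc47), Ddx5 (Cep95), Dhx57 (Morn2), Ddx31 (Gtf3c4), Ddx25 (Pus3), Ddx28 (Dus2), Ddx51 (Noc4l) and Ddx49 (Cope). Of these 9 of 11 were kept (81.8%, 48.2 to 97.7), against 80.9% of all genes with a shared end. Of the 35 members with an end of their own 25 were kept (71.4%, 53.7 to 85.4), against 67.0%. Mtrex itself encodes an RNA helicase of the nuclear exosome, and in each list 1 region was assigned to both it and Dhx29.

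Dhx genes were kept at 13 of 15 (86.7%, 59.5 to 98.3) and Ddx genes at 21 of 31 (67.7%, 48.6 to 83.3), intervals that overlap. Their median control −log10 p was 33.7 and 25.6 and their median log2 ratio -0.91 and -0.82. Of 23 helicase genes with other names, of RNA except for the DNA helicase gene Brip1, 14 were open in H1C and 18 in control. All 14 were kept (14 of 18, 77.8%, 52.4 to 93.6), among them Mtrex, which has the same regions as the member Dhx29. The shares of all genes were 33.6% open in H1C, 46.9% open in control and 71.0% of the latter kept. The translation helicase gene Eif4a1 had 56 in H1C and 108 in control (-1.09), its paralog Eif4a2 36 and 54 (-0.73), and Eif4a3, of the exon junction complex, 46 and 52 (-0.32). Snrnp200, which unwinds U4 from U6, had 26 in H1C and 58 in control (-1.30). Open in control alone were Ifih1, which encodes the viral RNA sensor MDA5 (pileup 40), Aqr (36), Supv3l1 (31) and Ythdc2 (43).

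Promoter windows of the members were rich in CpG. The 47 members with a window held a median of 24 CpG pairs (range 6 to 41), against 13 over all 17491 protein-coding genes with one and 23 over all kept genes. The members kept in H1C and those called in control alone had the same median, 24, over 31 and 9 windows. Over all genes these medians differed, at 23 in 6039 windows of kept genes and 17 in 2295 of those called in control alone. Ddx60 and Dhx57, with 6 and 8 pairs, had the fewest, and both were kept. ETS letters were found in 20 of 47 windows (42.6%), against 19.1% of all windows. Among kept members they stood in 16 of 31 windows (51.6%), against 33.8% of those of all kept genes. Among members called in control alone they stood in 3 of 9, against 23.7% of such windows over all genes. SP1 letters were in 63.8% of the members' windows, against 46.3% of all, NF-Y letters in 48.9% against 39.0%, and NRF1 letters in 21.3% against 10.1%. YY1 letters were in 12.8% against 5.41% and the E-box CACGTG in 10.6% against 7.90%. Most of these gaps narrow or turn round among kept genes: SP1 letters were in 61.3% of the kept members' windows against 70.4% of those of all kept genes, NRF1 letters in 19.4% against 17.9%, and YY1 letters in 9.68% against 10.3%. The E-box was in 3 of 31 windows of kept members and 667 of 6039 of those of all kept genes. NF-Y letters were in 48.4% against 42.9%. The TATA box TATAAA was found in 4.26%, in Ddx58 and Ddx60, against 13.3% of all, and the ZNF143 letters ACTACAA in no window, against 3.84% of all. Both strands were searched, matches are letters and not measured binding, and no window says anything of a factor whose letters it lacks.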

How the data were processed

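ATAC-seq, which reads out DNA reachable by a transposase, was done on 1 H1C and 1 control library of about 1000 cells each, amplified for 13 to 16 cycles per the labels. Per the submitters' processing notes, MACS2, featureCounts, Picard, Bowtie2 2.2.9 and Trim Galore 0.4.4 were among the tools, on build mm10. Their settings, duplicate removal and any shift to the cut site are not given in the sources used here, and could alter summit heights and positions. Regions were called per library. The authors' deposited lists give the fold (a ratio of summit pileup to local background, 1 added to each), the −log10 p and −log10 q of the peak caller, the summit's offset in bp and a score. For 99.962% of H1C and 99.969% of control regions the score is −log10 q times 10 without its decimals. These values describe regions within a list.

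Pileups were solved from fold and Poisson −log10 p (relative tolerance 0.0001) for 13155 of 13156 H1C and 32005 of 32005 control regions. On data simulated with the same formulas 100% of 2484 pileups were recovered, which checks the solving and not the peak caller's formulas. Regions on chromosomes 1 to 19, X and Y were assigned to protein-coding genes of a RefSeq table (GRCm38.p6) within 1 kb of either end, and a gene took its region with the highest −log10 p. Strand and start came from RefSeq promoter windows. Shares have exact Clopper-Pearson and pileup ratios exact conditional binomial 95% intervals; amplified fragments are not independent molecules. Bins were deciles of control −log10 p over all genes open in control, and the other genes' shares were weighted to the members' bins. Set to be named were Ddx41, the 8 kept and 8 control-only members with the highest control −log10 p, the 4 lowest and 4 highest ratios, and members at the window's edge. Not every value is given for each. Members and lists were chosen with earlier results of these data known. Of the stem cell marker list, 1 gene is not reported here. Alternatives covered windows, starts, thresholds, list length, overlap, bins and scaling. The work was done in Python 3.11.15 with scipy 1.17.1, matplotlib 3.10.9, pandas 2.3.3 and numpy 2.4.6.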

Additional observations from a re-analysis of the deposited data

Results flagged for a closer look

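At 2 members the H1C list held more regions than the control list within the gene but more than 1 kb from its ends, in data that the comparison of gene ends did not use. Ddx6 had 2 such regions in H1C, with pileups of 25 and 24, against 1 in control with a pileup of 42, which both overlapped. Dhx35 had 1 in H1C, at chromosome 2, 158839164 to 158839401 with a pileup of 21 and a fold of 3.73, which no control region overlapped. Both genes had control regions elsewhere, at their ends. The share of all protein-coding genes with more such regions in H1C than in control was not taken.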

How the results depend on the processing

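Under 19 alternative settings, each applied to the results it bears on, 112 values of 10 results were recomputed. In 104 a share moved by less than the counting interval of the members' share, a median ratio by less than that of their summed pileups, and a count by at most 1.5 times. In 8 the value moved by more, and 0 turned the sign of a median ratio. The ratio from overlapping regions alone was chosen after seeing the data. With both lists trimmed to equal length, 7 members were called in control alone and 3 in H1C alone. These are 13.2% and 5.66% of the members, against 5.94% and 1.89% of all genes, and members were open in control more often than other genes. Of the genes open in the trimmed control list, 81.6% of members and 84.2% of other genes were kept. At the members' bins 86.3% of other genes were kept. With a fold of at least 5 in both lists, 62.2% of members and 52.6% of other genes were kept. At the members' bins with that fold, 54.2% of other genes were kept. With 50% reciprocal overlap, 60.9% of members and 55.7% of other genes were kept. Without scaling the median log2 ratio was -0.71 for members and -0.70 for other genes at matched bins, and with local background -0.51 and -0.50. The cause was not tested. The difference in kept share between members and other genes was above 0 in 6 and below 0 in 10 of 16 alternatives, none outside the members' interval. No paired analysis was possible because H1C and control had 1 library each. Depth is known only through the background, if both lists were called with the same settings. A region that was not called is not shown to be closed.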

Other observations

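Away from the ends, 9 members had 10 regions within the gene in H1C and 16 members had 20 in control. These are 17.0% of the members in H1C and 30.2% in control, against 11.8% and 26.2% of all protein-coding genes. Besides those at inner starts of Ddx50, Ddx56, Ddx19b and Dhx32, the highest −log10 p in control was that of a region in Dhx30. It had a pileup of 23 in H1C and 42 in control, and its control fold, 8.57, was above that of the region at the gene's end, 6.12. Next came a region in Dhx34, with a pileup of 26 in H1C and 45 in control. In Ddx5 a region with a pileup of 42 and in Ddx39a one with a pileup of 33 were called in control alone.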
